A study of Mus musculus with 11 samples.

Results

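Genes of activated fibroblasts and matrifibrocytes were followed in the left ventricle of mice with and without myocardial infarction (MI): Postn, Cthrc1, Fn1, Comp, Cilp, Cilp2, Fap, Pdgfra, Ddr2 and Meox1. They were taken as a list of names and matched by symbol, which found 10 of 10 among the 25006 genes counted. Whole-tissue RNA was sequenced from 11 mice, 1 library per mouse, with libraries named by mouse code. The control mice carried the floxed allele Vegfc fl/fl in the genotype label, whereas the label's protocol and the study's methods call them LysMCre mice, so it cannot be said from these sources whether the controls carried Cre. The Vegfc-deficient mice, called KO here, were Vegfc fl/fl ; LysMCre, in which Cre is driven from the Lyz2 (LysM) locus, active in macrophages and other myeloid cells and not in fibroblasts. The groups were naive control (M45 and M44, n = 2), naive KO (M34, M150 and M149, n = 3), MI control (M38, M006 and M40, n = 3) and MI KO (M35, M913 and M900, n = 3). MI was a permanent ligation of the left anterior descending coronary artery, and infarcted left ventricle was taken 9 days later. Naive ventricle was taken from the equivalent area, and ages were not given in the labels.

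In the heart, resident fibroblasts hold the interstitial collagen network and carry the receptor Pdgfra. After infarction they proliferate, secrete matrix and take on contractile features as activated fibroblasts and myofibroblasts, for which Postn is the customary marker. As the scar matures, some become matrifibrocytes, a state named for its expression of matrix genes of tendon and cartilage such as Comp, Cilp2 and Chad.

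Total counts were 10824989 to 26782728 per library, and levels are given as CPM, counts scaled to library size with edgeR's TMM factors. A level of 0.101 to 0.363 CPM, depending on the library, stood for 3 counts, which served as the limit of detection for counting error only. Lyz2, the locus that carries Cre, was at 4538 to 5380 CPM in MI control and at 1392 (M35), 12.4 (M913) and 203 CPM (M900) in MI KO. It was at 2282 and 2121 CPM in naive control and at 245 (M34) and 72.5 CPM (M150) in naive KO, whereas the library labelled naive KO M149 held 4565 CPM and so stood apart from the other 5 KO libraries. Vegfc itself was at 21.9 to 45.5 CPM in whole tissue and overlapped between genotypes in naive and in MI hearts. Xist was at 188 to 403 CPM in all 6 MI libraries and at most 11.8 CPM in the 5 naive libraries, so whatever sets Xist and MI itself cannot be told apart in the comparisons of MI with naive hearts. Cardiomyocyte markers summed to 60380 to 82666 CPM in naive and 2151 to 19490 CPM in MI libraries, and all 8 were lower after MI in both genotypes (edgeR quasi-likelihood, called QL below, with Benjamini-Hochberg adjustment). Their part in the results was not tested. In whole tissue, more fibroblasts and more RNA per fibroblast cannot be told apart.

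MI was accompanied by higher levels of most of the listed genes. In control mice 8 of 10 rose and in KO mice 10 of 10 rose, with the call set at an edgeR QL p of less than 0.05 after Benjamini-Hochberg adjustment across the 14779 genes tested. Of all genes tested, 26.3% were called higher in control mice and 30.0% in KO mice. Every MI library lay above every naive library of the same genotype for 8 listed genes in control and 10 in KO mice. Over the 14779 genes tested this held for 5779 in control and 4966 in KO mice. The median log2 fold change of the listed genes was 3.98 in control and 4.07 in KO mice, against 0.13 and 0.10 over all genes tested. All 10 passed the filter on low counts, Cilp2 only through its counts in MI libraries, so its call follows in part from the filter. The genes divided by role: those for secreted matrix proteins had fitted folds of 12.3 to 299.6, while those for the surface proteins and the transcription factor had fitted folds of 1.09 to 3.38.

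**Figure D1:**
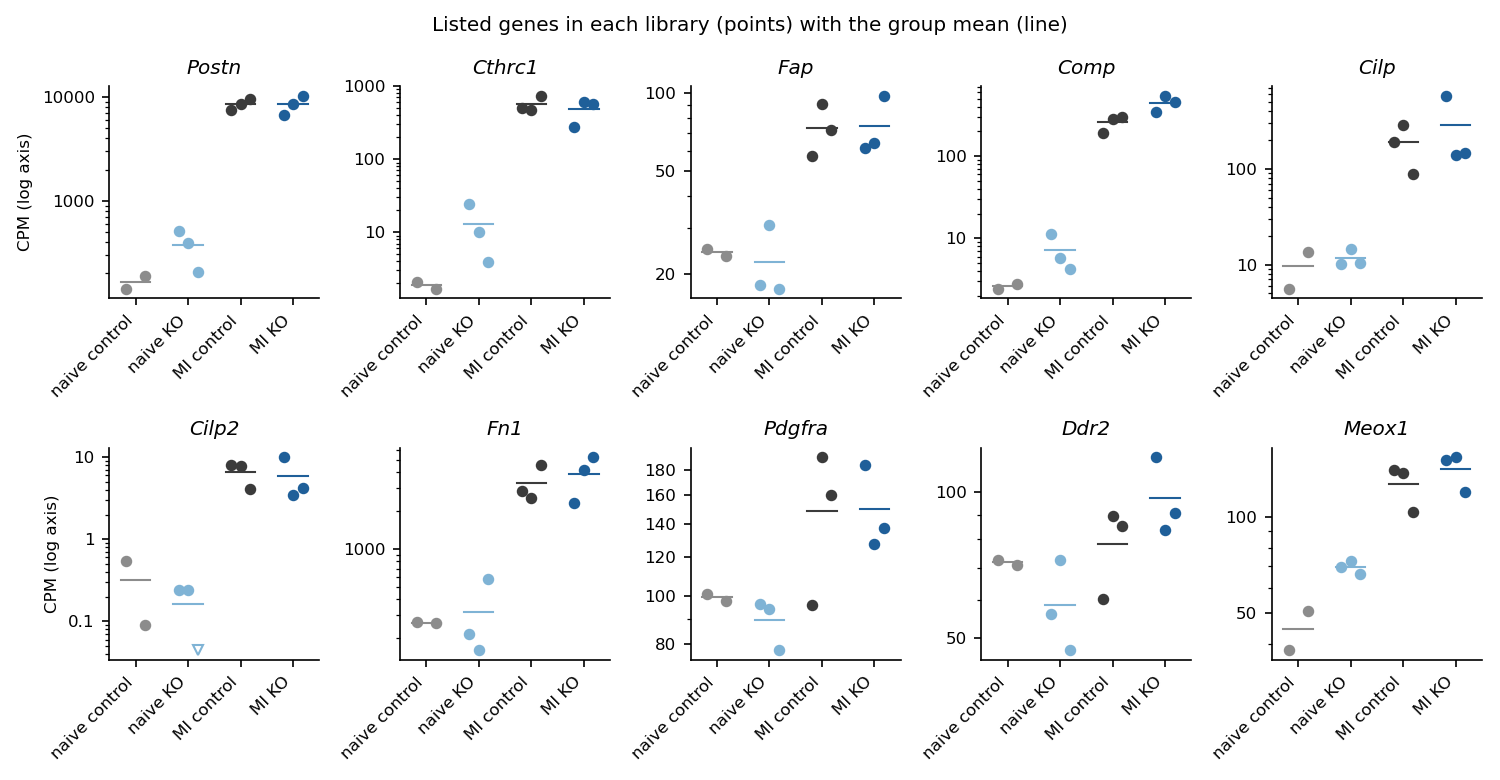
TMM-scaled CPM of each listed gene (log axis, which differs between panels) in the 11 libraries, grouped as naive control, naive KO, MI control and MI KO; points are libraries in the order of the text, lines are group means, and the open triangle marks a count of 0. For Postn, Cthrc1, Comp, Cilp, Cilp2, Fn1, Fap and Meox1 every MI library lies above every naive library, whereas Pdgfra and Ddr2 overlap.

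Promoter sequence was at hand for 5 of the 10 genes (Postn, Cilp, Cilp2, Pdgfra and Ddr2; RefSeq, GRCm38.p6). For Postn, with 2 windows, the one nearest the annotated start was taken. The 250 bases before the start are shown for the paralogs Cilp and Cilp2, for Postn and, as a gene that moved little, for Pdgfra. The RefSeq start of Cilp2 lies 295 bases from the annotated gene start, so its window falls inside the annotated gene span. Capitals mark matches to the motifs searched.
Postn (chr3:54360857-54361106, plus strand): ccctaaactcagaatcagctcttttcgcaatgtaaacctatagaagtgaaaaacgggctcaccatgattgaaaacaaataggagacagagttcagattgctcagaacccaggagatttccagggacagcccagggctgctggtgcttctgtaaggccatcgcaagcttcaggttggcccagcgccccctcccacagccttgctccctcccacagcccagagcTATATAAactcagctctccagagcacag
Cilp (chr9:65264930-65265179, plus strand): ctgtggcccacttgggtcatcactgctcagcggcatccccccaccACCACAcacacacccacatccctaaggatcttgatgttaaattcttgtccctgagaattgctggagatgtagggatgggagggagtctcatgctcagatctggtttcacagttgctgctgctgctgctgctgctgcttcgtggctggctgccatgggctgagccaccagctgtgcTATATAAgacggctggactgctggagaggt
Cilp2 (chr8:69887393-69887642, minus strand): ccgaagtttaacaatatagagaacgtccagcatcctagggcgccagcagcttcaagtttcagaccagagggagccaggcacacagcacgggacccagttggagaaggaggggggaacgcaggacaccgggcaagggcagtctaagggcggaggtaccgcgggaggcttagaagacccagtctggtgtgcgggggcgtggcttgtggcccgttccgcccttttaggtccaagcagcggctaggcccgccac
Pdgfra (chr5:75152001-75152250, plus strand): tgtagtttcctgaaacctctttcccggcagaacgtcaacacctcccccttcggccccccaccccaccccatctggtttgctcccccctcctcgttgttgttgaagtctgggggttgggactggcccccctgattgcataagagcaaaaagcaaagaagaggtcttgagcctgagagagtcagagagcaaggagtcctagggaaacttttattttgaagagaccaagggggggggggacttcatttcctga
The letters TATATAA, a form of the TATA box, stood 28 to 22 bases before the start of Postn and 30 to 24 bases before that of Cilp, on the sense strand. They stood in 3.04% of 32851 RefSeq windows of the same length, and this motif was added to the search after the sequences had been read. The RUNX core TGTGGT (14.0% of windows) matched the reverse strand of Cilp, 205 to 200 bases before the start. GGAATG (TEAD core, 12.6%), TGANTCA (AP-1, 6.75%) and CCAAT (33.8%) matched none of the 5 windows on either strand. The windows of Cilp2 and Pdgfra held no match, and that of Ddr2 held TATATAA 216 to 210 bases before a start that lies 21818 bases from the annotated gene start used for counting. These matches describe letters and not binding.

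Postn encodes periostin, a matricellular protein that binds collagen and integrins (ENSMUSG00000027750, chr3:54361109-54391037 of GRCm38, plus strand). It was at 142 (M45) and 189 CPM (M44) in naive control and at 7489 (M38), 8574 (M006) and 9464 CPM (M40) in MI control. In KO mice it was at 514 (M34), 395 (M150) and 205 CPM (M149) in naive hearts and at 6711 (M35), 8643 (M913) and 10307 CPM (M900) after MI. The MI libraries did not come near the naive ones, of which M34 was the highest, and the reads on this gene alone were 0.783% to 1.2% of all counts after MI. The log2 fold change was 5.68 (SE 0.52, adjusted p = 0.000137) in control and 4.53 (SE 0.41, adjusted p = 4.17e-05) in KO mice by edgeR QL with Benjamini-Hochberg adjustment.

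Cthrc1 encodes a secreted collagen triple helix repeat protein that marks the most matrix-active scar fibroblasts (ENSMUSG00000054196, chr15:39076932-39087121, plus strand). It was nearly silent in naive control hearts, at 2.08 (M45) and 1.69 CPM (M44), from 23 and 19 counts. MI control libraries held 495 (M38), 468 (M006) and 740.1 CPM (M40). Naive KO libraries held 24.7 (M34), 10.2 (M150) and 3.92 CPM (M149), and MI KO libraries 274 (M35), 614 (M913) and 568 CPM (M900). Its log2 fold change of 8.23 in control mice (SE 0.88, adjusted p = 0.000197) was the 23rd highest of the 14779 genes tested, and that in KO mice was 5.22 (SE 0.62, adjusted p = 0.000112), both by edgeR QL with Benjamini-Hochberg adjustment.

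Fn1 encodes fibronectin, the provisional matrix on which collagen is deposited (ENSMUSG00000026193, chr1:71585520-71653200, minus strand). It was already abundant in naive ventricle, at 265 (M45) and 259 CPM (M44) in control and 213 (M34), 159.6 (M150) and 584 CPM (M149) in KO libraries. M149 thus stood above the other 4 naive libraries. It also held their highest sum of macrophage markers, 2207 CPM against 1453 to 1705 CPM, and the part of this in its Fn1 level was not tested. After MI Fn1 was at 2838 (M38), 2492 (M006) and 4591 CPM (M40) in control and 2285 (M35), 4178 (M913) and 5267 CPM (M900) in KO libraries. The log2 fold change was 3.66 (SE 0.65) in control and 3.62 (SE 0.54) in KO mice, and it was 4.39 in KO mice without M149. Adjusted p-values were 0.0014 and 0.000363 by edgeR QL with Benjamini-Hochberg adjustment.

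Comp, Cilp and Cilp2 encode secreted proteins of cartilage and tendon matrix. Comp, a pentameric thrombospondin that links collagen fibrils, lies at chr8:70373558-70382066 (ENSMUSG00000031849, plus strand), and Cilp2 lies 486 kb away on the same chromosome at chr8:69880369-69887687 (ENSMUSG00000044006, minus strand). Comp was at 2.45 (M45) and 2.76 CPM (M44) in naive control and at 192 (M38), 281 (M006) and 296 CPM (M40) in MI control. It was at 11.4 (M34), 5.81 (M150) and 4.22 CPM (M149) in naive KO and at 339 (M35), 542 (M913) and 449.6 CPM (M900) in MI KO. The groups lay far apart, with log2 fold changes of 6.62 in control (SE 0.50, adjusted p = 9.02e-05) and 5.94 in KO mice (SE 0.40, adjusted p = 1.99e-05) by edgeR QL with Benjamini-Hochberg adjustment.

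Cilp, cartilage intermediate layer protein, binds TGF-β1 and is known as a matrix protein of the injured heart (ENSMUSG00000042254, chr9:65265180-65280605, plus strand). It was at 5.62 (M45) and 13.7 CPM (M44) in naive control and at 10.2 (M34), 14.6 (M150) and 10.3 CPM (M149) in naive KO. After MI it was at 192 (M38), 288 (M006) and 89.3 CPM (M40) in control and at 582 (M35), 139 (M913) and 146.5 CPM (M900) in KO libraries. All MI libraries lay above all naive ones, and their relative spread was wider for Cilp than for any other listed gene. The log2 fold change was 4.29 in control (SE 0.81, adjusted p = 0.00195) and 4.63 in KO mice (SE 0.69, adjusted p = 0.000345) by edgeR QL with Benjamini-Hochberg adjustment.

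Its paralog Cilp2 was the least abundant listed gene, with 6, 1, 3, 2 and 0 counts in M45, M44, M34, M150 and M149. After MI it reached 7.95 (M38), 7.75 (M006) and 4.07 CPM (M40) in control and 9.99 (M35), 3.48 (M913) and 4.19 CPM (M900) in KO libraries. From the summed counts it was 20.7 times as high in MI as in naive control hearts (95% interval 9.95 to 51.6, exact binomial) and 33.5 times as high in MI as in naive KO hearts (14.2 to 104). These intervals cover counting error only. Fitted adjusted p-values were 0.00212 and 0.000417 by edgeR QL with Benjamini-Hochberg adjustment.

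Fap encodes fibroblast activation protein, a surface serine protease (ENSMUSG00000000392, chr2:62500943-62574075, minus strand). It was at 24.9 and 23.5 CPM in naive control, 17.5 to 30.9 CPM in naive KO, 57.3 to 91.1 CPM in MI control and 61.2 to 97.9 CPM in MI KO. Naive and MI libraries did not overlap, and the rise was 3.04-fold (95% interval 1.89 to 4.89, adjusted p = 0.00219) in control and 3.38-fold (2.23 to 5.12, adjusted p = 0.000419) in KO mice by edgeR QL with Benjamini-Hochberg adjustment.

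Pdgfra and Ddr2, the receptors for platelet-derived growth factors and for fibrillar collagen, moved least. Pdgfra (ENSMUSG00000029231, chr5:75152292-75198215, plus strand) was at 101 and 98.1 CPM in naive control and at 96.2 (M38), 191 (M006) and 160.0 CPM (M40) in MI control, so M38 lay below both naive libraries. In KO mice it was at 96.6 (M34), 94.5 (M150) and 77.9 CPM (M149) in naive hearts and at 184.5 (M35), 127.6 (M913) and 137.5 CPM (M900) after MI. The log2 fold change was 0.58 in control mice (95% interval -0.01 to 1.18, adjusted p = 0.0929) and 0.74 in KO mice (0.21 to 1.27, adjusted p = 0.0215) by edgeR QL with Benjamini-Hochberg adjustment. Without M38 the control value was 0.76 with an adjusted p of 0.0149, and limma-voom with sample quality weights gave 0.61 with an adjusted p of 0.0205. The KO call was lost without M149 (adjusted p = 0.0666) or without M35 (adjusted p = 0.0741) in the same edgeR test, which left 9 of 10 listed genes called.

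Ddr2 (ENSMUSG00000026674, chr1:169972307-170110762, minus strand) was at 72.7 and 71.0 CPM in naive control and 60.3 (M38), 89.4 (M006) and 85.3 CPM (M40) in MI control. The groups overlapped, and the log2 fold change was 0.12 (95% interval -0.38 to 0.63, adjusted p = 0.668 by edgeR QL with Benjamini-Hochberg adjustment). In KO mice it was at 56.2 (M34), 72.4 (M150) and 47.3 CPM (M149) in naive hearts and 118 (M35), 83.7 (M913) and 90.7 CPM (M900) after MI, a log2 fold change of 0.74 (0.28 to 1.19, adjusted p = 0.0107 by the same edgeR test with Benjamini-Hochberg adjustment). The responses of the genotypes were not shown to differ, since the interaction was 0.61 with an adjusted p of 0.618 by edgeR with Benjamini-Hochberg adjustment. A gene antisense to Ddr2 had at most 17 counts in any library.

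Meox1 encodes a homeodomain transcription factor of mesenchymal cells (ENSMUSG00000001493, chr11:101877510-101894374, minus strand). It was at 38.3 (M45) and 50.7 CPM (M44) in naive control, 66.3 to 72.6 CPM in naive KO, 103.0 to 139 CPM in MI control and 119 to 153 CPM in MI KO. All 6 MI libraries lay above all 5 naive libraries. The log2 fold change was 1.51 in control (SE 0.19, adjusted p = 0.000354) and 1.02 in KO mice (SE 0.17, adjusted p = 0.000562) by edgeR QL with Benjamini-Hochberg adjustment.

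**Figure D2:**
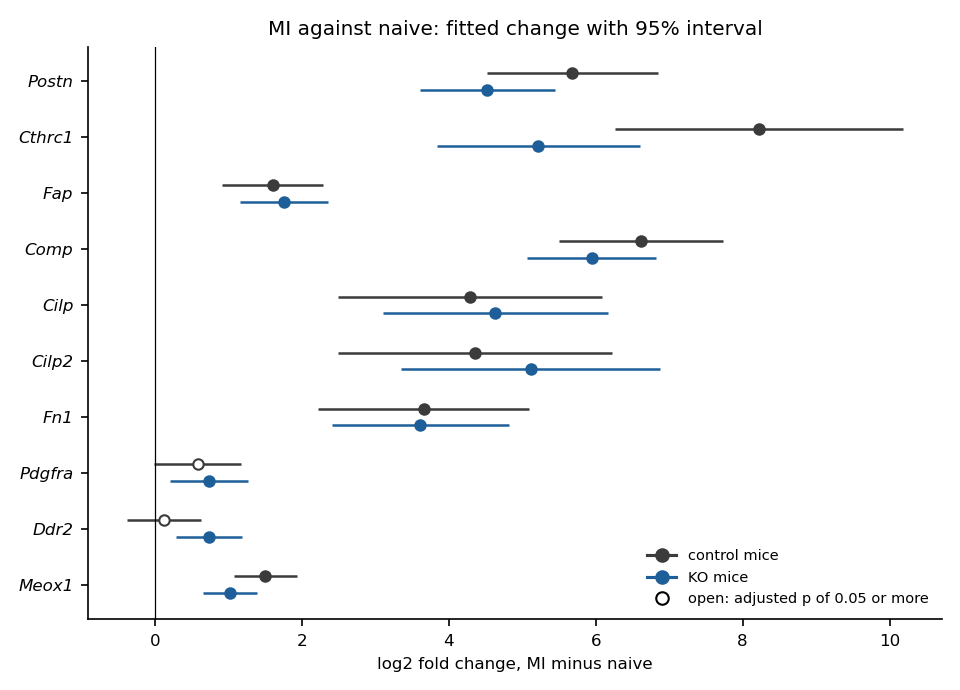
Fitted log2 fold change of MI against naive hearts (x axis) for the listed genes (y axis) in control (dark) and KO (blue) mice; points are estimates, bars 95% intervals, and open points have an adjusted p of 0.05 or more. Cthrc1, Comp and Postn lie farthest to the right, and the open points are Pdgfra and Ddr2 in control mice.

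The order of the levels changed with MI. Per kilobase of exon, naive control hearts held 22.4 CPM of Fn1, 20.0 of Meox1 and 19.0 of Postn, and Meox1 overlapped both of the others between libraries. Below them came Pdgfra (9.93), Ddr2 (7.75), Fap (4.27), Cilp (2.28), Cthrc1 (1.19), Comp (0.878) and Cilp2 (0.0733 CPM per kb), with no overlap between neighbours. In MI control hearts Postn stood first at 978 CPM per kb, from 861 to 1088. Cthrc1 followed at 356 (294 to 465) and Fn1 at 283 CPM per kb (213 to 393), which overlapped. Comp was at 86.5, Meox1 at 56.7 and Cilp at 44.6 CPM per kb, and Cilp, with its wide spread, overlapped both of the others. Pdgfra at 14.9, Fap at 13.0 and Ddr2 at 8.46 CPM per kb came next, with Cilp2 last at 1.53. Pdgfra overlapped both Fap and Ddr2, while Fap and Ddr2 did not overlap. Cthrc1 thus moved from the 8th to the 2nd place and Comp from the 9th to the 4th. In MI KO hearts Postn was at 983 CPM per kb, Fn1 at 335 and Cthrc1 at 305, and the latter pair again overlapped.

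**Figure D3:**
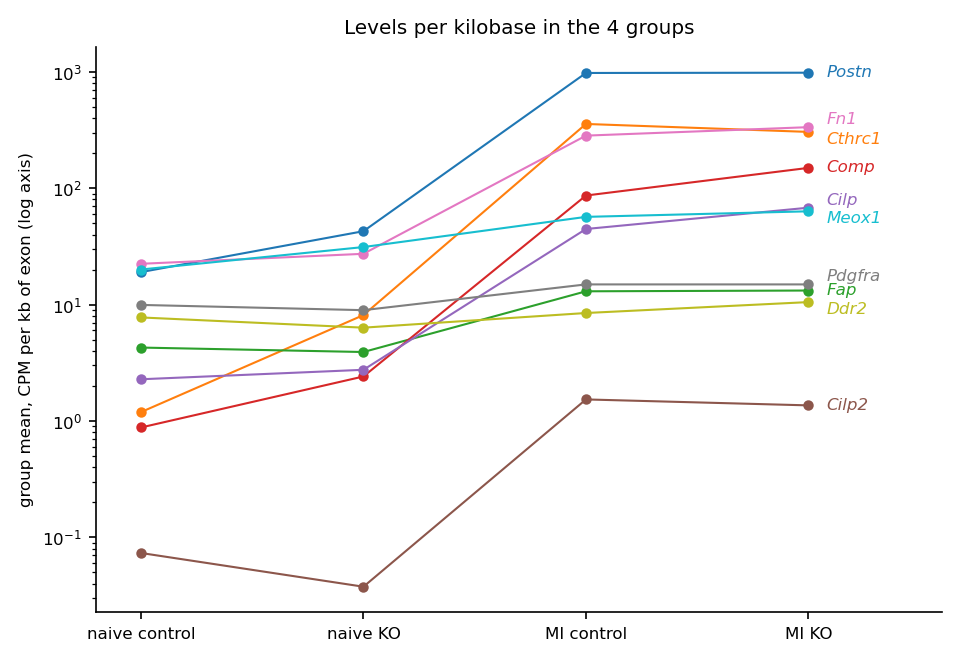
Group means in CPM per kilobase of exon (log axis) in naive control, naive KO, MI control and MI KO hearts, 1 line per listed gene. Cthrc1 and Comp lie below Pdgfra, Ddr2 and Fap in naive control hearts and above them after MI, while Cilp2 is lowest in all 4 groups.

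Within libraries, Pdgfra served as the denominator for the other listed genes. The ratio of Postn to Pdgfra (both in CPM) was 1.41 to 5.32 in naive and 36.4 to 77.8 in MI libraries, and that of Cthrc1 was 0.0173 to 0.256 and 1.49 to 5.15. The ratio of Ddr2 to Pdgfra was 0.582 to 0.766 in naive and 0.467 to 0.66 in MI libraries. Postn and Cthrc1 thus stood far higher against Pdgfra in every MI library than in any naive one, whereas the ratio of the receptors overlapped between naive and MI libraries.

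Next, MI KO hearts were compared with MI control hearts, the comparison that asks whether loss of Vegfc in myeloid cells accompanied a different fibroblast response. By edgeR QL with Benjamini-Hochberg adjustment, 0 of 10 listed genes and 0% of all genes were called, and 1 listed gene and 1173 genes in all had an unadjusted p under 0.05. The DESeq2 Wald test called 51 genes and limma-voom 0, and neither called a listed gene. Postn was at 8509 ± 989 CPM (SD, n = 3) in control and 8554 ± 1799.9 CPM (SD, n = 3) in KO hearts, and the 95% interval of the log2 fold change ran from -0.78 to 0.80. Among the other listed genes the 95% interval of the fold was narrowest for Meox1 (0.869 to 1.43) and widest for Cilp (0.619 to 3.75).

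Comp was the 1 listed gene in which all 3 MI KO libraries lay above all 3 MI control libraries, an arrangement seen in 5.99% of all genes tested. Its log2 fold change was 0.79 (SE 0.32, adjusted p = 0.603 by edgeR QL with Benjamini-Hochberg adjustment), and leaving out any single library gave values from 0.62 to 0.95. The within-library ratio of Comp to Postn was 0.0257 to 0.0328 in MI control and 0.0436 to 0.0627 in MI KO libraries. Since Postn hardly differed between these groups (log2 fold change 0.008), the ratio largely restates the Comp values and is no separate evidence. Cthrc1 had a log2 fold change of -0.23 (SE 0.52), Fn1 of 0.24 (SE 0.49), Cilp of 0.61 (SE 0.59), Cilp2 of -0.17 (SE 0.53), Ddr2 of 0.32 (SE 0.20), Fap of 0.02 (SE 0.26) and Pdgfra of 0.01 (SE 0.24). The groups overlapped in all of these.

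The MI libraries differed among themselves in a pattern that crossed the genotypes. M35 (KO) was the lowest of the 6 for Postn, Cthrc1 and Fn1 and the highest for Cilp, Cilp2 and Ddr2. Against the median of the 6, its Cilp lay 1.79 higher and its Cthrc1 0.95 lower on the log2 scale. M40 (control) was the reverse for some genes, with the lowest Cilp and the highest Cthrc1. The ratio of Cilp to Fn1 ran from 0.0195 in M40 to 0.255 in M35. M35 also held the highest cardiomyocyte marker sum of the MI libraries (19490 CPM) and M40 the lowest (2151 CPM), and M35 held more Lyz2 than the other MI KO libraries. The part of these in the spread of Cilp was not tested. Without M35 the log2 fold change of Cilp between KO and control after MI was -0.41 in place of 0.61.

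**Figure D4:**
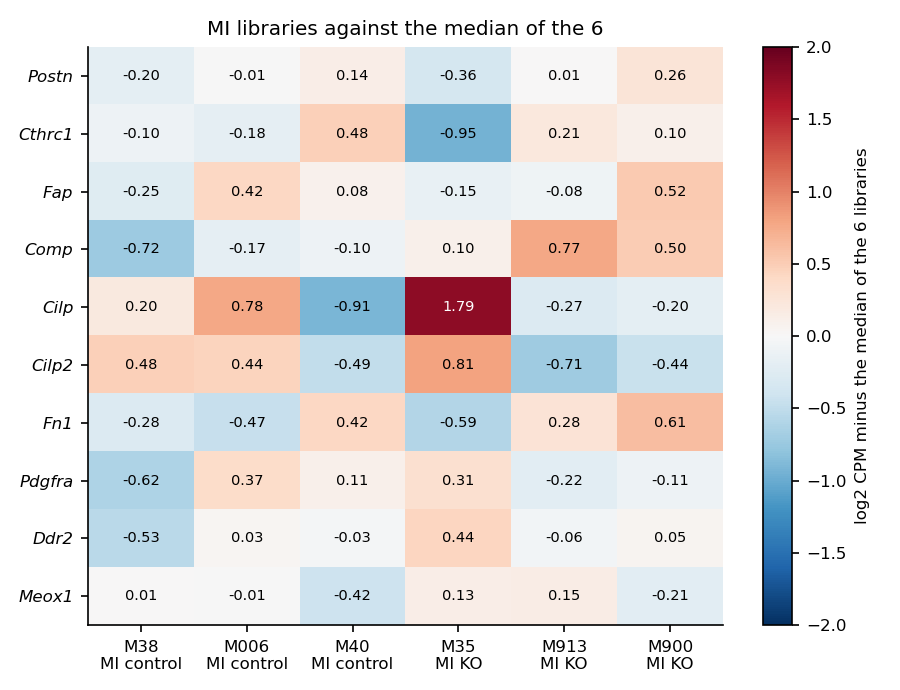
Log2 CPM of each listed gene (rows) in the 6 MI libraries (columns, 3 control and 3 KO), relative to the median of the 6; red is higher and blue lower, with the value in each cell. M35 stands out with 1.79 for Cilp and -0.95 for Cthrc1. Comp is positive in all 3 KO and negative in all 3 control libraries, which follows from its separation of the groups once the median is subtracted.

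In naive hearts, KO libraries held more transcript of several listed genes than control libraries, without a call. By edgeR QL with Benjamini-Hochberg adjustment, 0 of 10 listed genes and 0% of all genes were called, and 4 listed genes and 499 genes in all had an unadjusted p under 0.05. The DESeq2 Wald test called 14 genes, with Cthrc1 among them (adjusted p = 0.0112), and limma-voom called 6 genes and no listed gene. All 3 KO libraries lay above both control libraries for Postn, Cthrc1, Comp and Meox1, 4 of 10, against 12.3% of all genes tested. The log2 fold change was 2.78 for Cthrc1 (95% interval 1.17 to 4.39), 1.46 for Comp (0.52 to 2.42), 1.16 for Postn (0.25 to 2.08) and 0.64 for Meox1 (0.23 to 1.06). The edgeR adjusted p was 1 for each. In the same order they were 3.21, 1.74, 1.46 and 0.68 without the library labelled naive KO M149, where the edgeR p after Benjamini-Hochberg adjustment was 0.0875, 0.218, 0.301 and 0.477. Without M34 they were 1.88, 0.94, 0.86 and 0.64. Pdgfra, 1 of 10, lay lower in all 3 KO libraries than in both control libraries, as did 1487 of the 14779 genes tested. The other 5 listed genes overlapped.

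For Cthrc1, Postn and Comp, M34 was the highest, M150 next and M149 the lowest of the naive KO libraries. Xist followed the same order, at 11.8, 8.11 and 1.76 CPM, above 1.27 and 0.624 CPM in naive control. Set against the mean of the 6 MI libraries, the excess of M34 over the naive control mean was 3.23% for Xist, 4.34% for Cthrc1, 4.08% for Postn and 2.51% for Comp. The excess of M150 was 2.13%, 1.57%, 2.68% and 0.915%, and that of M149 was 0.244%, 0.386%, 0.463% and 0.46% in the same order. For Fn1, which also rose with MI, M34 and M150 lay below the naive control mean and M149 above it by 8.92% of the MI mean. For Meox1 the excess was 16.3% or more in each. For Cilp it was 0.207% in M34, 2.07% in M150 and 0.258% in M149. Fap lay above the naive control mean in M150 (9.02%) and below it in M34 and M149, and Cilp2 lay below it in each naive KO library. These percentages were computed after the values had been seen, and carry-over of material or reads from MI into naive KO libraries, which would bear on what these differences mean, was not tested.

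**Figure D5:**
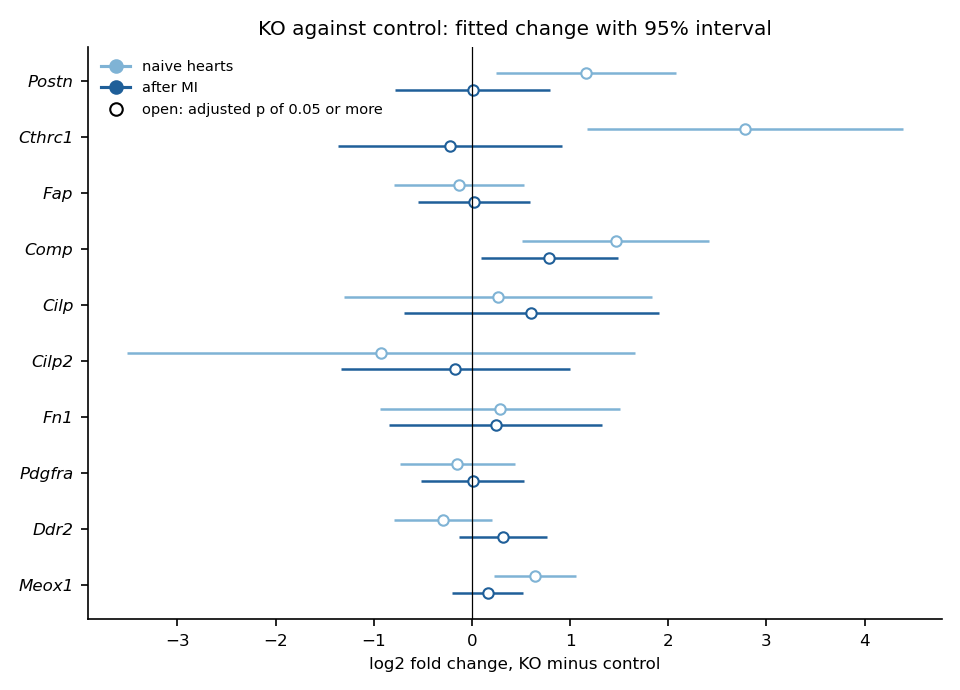
Fitted log2 fold change of KO against control (x axis) for the listed genes (y axis) in naive hearts (light blue) and after MI (dark blue); points are estimates and bars 95% intervals, and all points are open because no adjusted p was under 0.05. In naive hearts the bars of Cthrc1, Comp, Postn and Meox1 lie right of 0, and after MI only that of Comp does.

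The interaction of MI and genotype asks whether the rise with MI differed between control and KO mice. Of the listed genes 0 of 10 were called by edgeR QL with Benjamini-Hochberg adjustment, against 0% of all genes, and 1 (of 1226 genes in all) had an unadjusted p under 0.05. That gene was Cthrc1, with an interaction of -3.01 on the log2 scale (SE 0.88, adjusted p = 0.534 by edgeR with Benjamini-Hochberg adjustment). The DESeq2 Wald test called it (adjusted p = 0.0296) among 55 genes, and limma-voom called no gene. Its 2 naive control libraries rest on 23 and 19 counts, and without M34 the interaction was -2.11. For Postn the interaction was -1.16 (95% interval -2.36 to 0.04).

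Other genes of activated fibroblasts and myofibroblasts moved with MI as the listed genes did. Of 22 tested, 22 rose in control mice (median log2 fold change 3.98) and 21 in KO mice (median 3.52) by edgeR QL with Benjamini-Hochberg adjustment. Col12a1, a collagen that bridges fibrils, went from 1.18 and 0.981 CPM in naive control to 133 to 227 CPM in MI control. Sfrp2, a secreted Wnt modulator, went from 9.79 and 8.03 to 684 to 1035 CPM, Ccn4, a matricellular protein, from 1.81 and 2.23 to 86.9 to 179 CPM, and Lox, which cross-links collagen, from 12.8 and 8.29 to 495 to 841 CPM. In naive hearts 19 of the 22 had a value above 0 between KO and control (median 0.38), with 0 called and 5 at an unadjusted p under 0.05, and DESeq2 and limma-voom also called 0. The count above 0 ran from 17 to 20 over the fits with a library left out. Of all 14779 genes tested, 7749 lay above 0 and 499 had an unadjusted p under 0.05 by edgeR, and the median was 0.01. The 22 genes were read in the same libraries, so they are not separate observations. M34 was again the highest naive library for Col12a1 (7.41 CPM), Sfrp2 (37.1 CPM), Ccn4 (5.94 CPM) and Lox (40.9 CPM), and its excess over the naive control mean was 3.03% to 4.76% of the MI mean for these genes. For Col1a1 and Col3a1 that excess was 2.07% and 1.42% in M34, against 1.82% and 2.42% in M150.

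Of 14 other genes of matrifibrocytes, tendon and cartilage, 13 were matched and tested, and 11 were called higher in each genotype by edgeR QL with Benjamini-Hochberg adjustment. Chad, Mkx and Tnmd had too few counts to pass the filter on naive libraries alone, so their calls follow in part from the filter. Of the other 10, 8 rose in control and 9 in KO mice. Fmod, a collagen-binding proteoglycan, went from 7.52 and 2.23 CPM in naive control to 297 to 408 CPM in MI control and 212 to 377 CPM in MI KO. Acan, the large cartilage proteoglycan, spread from 5.58 (M35) to 96.2 CPM (M40) among MI libraries. The tendon gene Tnmd reached 8.83 to 14.2 CPM in MI control and 3.64 to 9.34 CPM in MI KO, and Chad 7.48 to 13.1 and 3.27 to 12.5 CPM, each from at most 0.605 CPM in naive libraries. Between KO and control after MI, 7227 of all genes tested had a value above 0 and 7551 below. Of the 13, 4 had a value above 0 and 9 below, with 0 called by edgeR, DESeq2 or limma-voom. The 2 of these 13 genes with an unadjusted p under 0.05 in edgeR, named here after their values were seen, both lay above 0. They were Prg4 (log2 fold change 1.67), which encodes the joint lubricant lubricin, and Clu (1.28), which encodes the secreted chaperone clusterin, and both were highest in M35. Markers of skeletal cartilage and bone summed to 3.94 to 23.6 CPM in MI and at most 0.407 CPM in naive libraries. The 4 tested, Col2a1, Col9a1, Matn3 and Hapln1, passed the filter on low counts only through MI libraries. Their calls as higher thus follow in part from the filter. Ibsp was at or under 3 counts in every library. The sum of the cartilage and bone markers was lowest in M35, and its part in the levels of Comp, Cilp and Acan was not tested.

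Of 16 resident fibroblast genes, 5 rose and 4 fell in control mice, and 6 rose and 5 fell in KO mice (edgeR QL with Benjamini-Hochberg adjustment). These shares were near those over all genes tested, of which 24.1% were called lower in control and 27.7% in KO mice, beside the shares called higher given above. Their summed level was 10591 to 12402 CPM in naive and 12748 to 16355 CPM in MI libraries. The ferritin receptor Scara5 fell from 116 and 104.7 CPM in naive control to 7.26 to 27.2 CPM in MI control. Gsn, an actin-severing protein, fell from 2990.4 and 3338 to 768 to 1332 CPM, and the peptidase Dpep1 from 309 and 231 to 64.0 to 115 CPM. Lum, a collagen-binding proteoglycan, rose from 432 and 535 to 1701 to 2301 CPM. The 4 changed in the same direction in KO mice, each past the threshold. Postn relative to Dcn, a proteoglycan of resident and activated fibroblasts alike, was 0.036 to 0.133 in naive and 1.47 to 2.97 in MI libraries.

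A set of 19 genes next to the listed genes held mostly ligands and receptors, and also Meox2 and Dpp4. Col1a1, Col3a1 and Pdgfrb in this set also belonged to the fibroblast lists above. In control mice 13 of the 19 rose and 1 fell, and in KO mice 14 rose, by edgeR QL with Benjamini-Hochberg adjustment. The median log2 fold change was 1.06 in control and 1.28 in KO mice. Col1a1 and Col3a1, the fibrillar collagens that Ddr2 binds, had log2 fold changes of 4.93 and 3.82 in control and 4.92 and 3.90 in KO mice. The collagen receptor Ddr1, largely epithelial, rose in both genotypes, with a log2 fold change of 1.18 in control (adjusted p = 0.0105 by the same edgeR test with Benjamini-Hochberg adjustment) and 1.36 in KO mice. Of the platelet-derived growth factors, Pdgfc, a ligand of Pdgfra, rose from 5.98 and 5.17 CPM in naive control to 20.0 to 38.3 CPM in MI control. Pdgfa rose by 0.91 on the log2 scale in control and 0.72 in KO mice. Pdgfb fell in control mice (-0.49, adjusted p = 0.0369 by the same edgeR test with Benjamini-Hochberg adjustment) and was at -0.13 in KO mice, and Pdgfd was not called in either. Tgfb3, a fibrogenic cytokine, had log2 fold changes of 3.20 and 3.27. Between KO and control, 0 of the 19 were called after MI or in naive hearts by edgeR, DESeq2 or limma-voom, and by edgeR 1 and 0 had an unadjusted p under 0.05.

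Markers of other cell types were read against the same shares over all genes. With MI, macrophage markers rose in 4 of 8 (control) and 5 of 8 (KO), and epicardial and mesothelial markers in 4 of 6 and 3 of 6, by edgeR QL with Benjamini-Hochberg adjustment. Endothelial markers fell in 2 of 6 in each genotype with 1 higher in KO mice, and smooth muscle and pericyte markers rose in 2 and fell in 2 of 7 in each, and a count of 2 in either list is near the share over all genes. Epicardial markers summed to 26.4 to 41.4 CPM in naive and 48.3 to 198 CPM in MI libraries. Lung epithelial markers summed to at most 2.16 CPM, with Sftpa1 at 0 in every library. Their part in the listed genes' changes was not tested.

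Over the 11 libraries, the genes most like Postn in log2 CPM were Ltbp2 (r = 0.998), Sfrp2 (0.998), Tnc (0.997), Col8a2 (0.997) and Col12a1 (0.996). For Comp they were Phldb2, Emilin3, Ltbp2, Sfrp2 and Atp8b2, with r of 0.992 to 0.993, and for Meox1 they were Tdg, Zbtb14, Ptger4, Egr3 and Ube2e2, with r of 0.958 to 0.972. The libraries form a naive and an MI cluster for these genes, so r mainly measures that step. With group means removed, the genes most like Postn were Acvrl1 (0.968), Ddah1, Tulp1, Kdelr3 and Col9a3 (0.95). Among the listed genes themselves, deviations from the group means ran together for Postn, Cthrc1 and Comp (r = 0.848 to 0.896) and for Pdgfra and Ddr2 (0.87), and in opposite directions for Cilp2 and Fn1 (-0.796). These r values are descriptions over 11 libraries, within which genes share depth and tissue make-up. They include the naive KO libraries, where Cthrc1 ran from 3.92 to 24.7 CPM and Comp from 4.22 to 11.4 CPM. Within MI KO, M35 was the lowest library for both Cthrc1 and Comp (274 and 339 CPM). Within MI control, M40 was the highest for both (740.1 and 296 CPM), while M38 and M006 changed order. Against the median of the 6 MI libraries, the signs of Cthrc1 and Comp were opposite in M35 (-0.953 and 0.097) and M40 (0.48 and -0.097). In the other MI libraries their signs were the same. That measure leaves in the genotype difference, which sets the sign of Comp, so it does not bear on these r values. Cilp2 had only 0 to 6 counts in naive libraries.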

How the data were processed

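Stranded mRNA libraries from the left ventricles of 11 mice were analysed. The files deposited by the authors hold raw counts for 25006 Ensembl genes per library, not normalized, and their processing notes name cutadapt 1.13, STAR, HTSeq 0.6.1p1, DESeq2 1.14.1 and mm10. The strand setting of counting was not given in the sources used here. Symbols, coordinates and exon lengths came from GENCODE M21 of GRCm38 (24991 identifiers matched). Counts were scaled by TMM and tested with edgeR 4.0.16 in R 4.3.3 (filterByExpr, glmQLFit, glmQLFTest, 1 fit of 11 libraries in 4 groups, Benjamini-Hochberg, threshold 0.05), and log2 CPM used a prior count of 2. The fit was tested on simulated data. Alternatives were DESeq2 1.42.0 (size factors or Wald test), upper quartile scaling, other filters and scaling, a threshold of 0.01 and leaving out each library. A further alternative was limma-voom 3.58.1, always run with sample quality weights, which weight each library. Named list genes were the 4 with the largest absolute change per list with MI in control mice, and always the PDGF ligands and Ddr1. Genes most like Postn, Comp or Meox1 were the 5 with the highest Pearson r. The listed genes and lists were chosen with earlier results of these data known.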

Additional observations from a re-analysis of the deposited data

How the results depend on the processing

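The direction of the listed genes with MI in both genotypes was the same under every alternative run, and all 8 genes other than Pdgfra and Ddr2 stayed past the threshold. Without M45 or M44, the lone naive control library was assumed to vary like the other groups. For calls over all genes by edgeR, MI in control mice gave 7450, with 4798 at an adjusted p under 0.01 and 4574 to 7636 as each library was left out (4574 without M45, 4880.0 without M44). Between KO and control after MI the count was 0, 51 by DESeq2 and 0 to 1 with a library left out. In naive hearts it was 0, with 14 by DESeq2, 6 by limma-voom, 2 with only the naive groups and 0 to 17 with a library left out (17 without M149). For the interaction it was 0, with 55 by DESeq2 and 0 to 1 with a library left out. Of the listed genes DESeq2 called 1 in naive hearts and 1 in the interaction, Cthrc1 in both. Upper quartile scaling moved the median of all genes with MI to 0.23 in control and 0.20 in KO mice and turned the KO effect after MI of Postn (-0.007) and Pdgfra (-0.006). Limma-voom with sample quality weights turned that of Fap (-0.035), Cilp (-0.050) and Pdgfra (-0.145), and that of Fn1 in naive hearts (-0.158). It also turned the interactions of Cilp (-0.401), Cilp2 (-0.150), Fn1 (0.562) and Pdgfra (-0.031). With a library left out, values without a call changed sign within these ranges: after MI, Postn -0.122 to 0.155, Cthrc1 -0.439 to 0.057, Fap -0.197 to 0.198, Cilp -0.409 to 1.047, Cilp2 -0.779 to 0.113, Fn1 -0.010 to 0.553 and Pdgfra -0.195 to 0.235. In naive hearts the ranges were -0.446 to 0.009 for Fap, -0.237 to 1.049 for Cilp, -1.707 to 0.814 for Cilp2 and -0.489 to 0.605 for Fn1. For the interaction they were -0.053 to 0.465 for Fap, -0.675 to 0.845 for Cilp, -0.981 to 1.540 for Cilp2, -0.363 to 0.731 for Fn1 and -0.036 to 0.422 for Pdgfra. The cause was not tested. No paired analysis was possible because the mouse codes are not shared between groups. DESeq2 gave no adjusted p for Cilp2 in the interaction. At an adjusted p under 0.01, 8 listed genes stayed called in KO mice. Groups of 2 or 3 libraries, and for Cilp2 0 to 6 naive counts, are among the limits of the genotype comparisons.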
